A study of Mus musculus with 17 samples.

Results

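The genes described here encode the nuclear subunits of mitochondrial complex I. They were chosen by name, as the protein-coding mouse genes whose symbol starts with Ndufa, Ndufb, Ndufc, Ndufs or Ndufv followed by a digit, leaving out Ndufa4 and Ndufa4l2, which gave 35 of the 31647 features in the count table. Transcripts were measured in hearts of wild-type mice 5d after surgery by massive analysis of cDNA ends (MACE), which sequences the 3' end of polyadenylated RNA, with primers that carry molecular identifiers. In 9 mice the left anterior descending coronary artery (LAD) had been ligated permanently to induce myocardial infarction (MI), and RNA came from the dissected infarct zone (IZ). The other 8 mice were sham operated, with the same surgery but no ligation, and RNA came from left ventricular (LV) tissue. By the study's methods all mice were male C57BL/6 J animals of 8 to 11 weeks. The control tissue was thus a whole LV sample and the MI tissue a dissected zone, so the effects of infarction and of the piece of tissue taken cannot be told apart. Each library is numbered as in its label, sham 1 to 8 and IZ 1 to 9.

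Complex I (NADH:ubiquinone oxidoreductase) is the entry point of electrons from NADH into the respiratory chain, and it pumps protons across the inner mitochondrial membrane. A peripheral arm in the matrix holds the NADH module, which oxidises NADH, and the quinone module, which passes the electrons to ubiquinone along iron-sulfur clusters, while the membrane arm carries the proton pumps. Core subunits do the catalysis, some encoded in the nucleus and the rest in mitochondrial DNA, and accessory subunits surround and stabilise them. The beating cardiomyocyte, packed with mitochondria, relies on the complex for most of its ATP.

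The promoters of 31 of the 35 genes were found in the RefSeq table for GRCm38.p6, from 250 bases before to 50 bases after the start of transcription. Ndufa2, Ndufb9 and Ndufs1 were among those with no entry. The 250 bases before the start are printed for the 2 genes with the largest falls (Ndufa5 and Ndufb10), the 2 with the smallest (Ndufa7 and Ndufc2) and the gene with the most matches to the binding letters of NRF1, a factor known for its part in respiratory gene expression (Ndufb4). Capitals mark those letters (GCGC, then any base, then TGCGC) on either strand. The windows lie at chr6:24527691-24527940 (minus strand), chr17:24724424-24724673 (minus strand), chr17:33824322-33824571 (plus strand), chr7:97399753-97400002 (plus strand) and chr16:37654369-37654618 (minus strand), in that order.
Ndufa5: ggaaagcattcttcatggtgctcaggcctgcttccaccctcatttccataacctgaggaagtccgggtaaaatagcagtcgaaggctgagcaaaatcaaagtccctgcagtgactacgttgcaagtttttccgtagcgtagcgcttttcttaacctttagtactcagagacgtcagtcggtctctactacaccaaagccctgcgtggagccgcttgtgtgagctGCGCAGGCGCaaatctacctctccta
Ndufb10: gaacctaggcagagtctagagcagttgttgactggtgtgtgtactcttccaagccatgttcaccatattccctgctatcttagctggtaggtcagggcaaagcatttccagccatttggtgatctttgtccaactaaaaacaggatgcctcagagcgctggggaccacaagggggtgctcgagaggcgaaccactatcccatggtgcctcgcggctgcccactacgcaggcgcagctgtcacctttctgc
Ndufa7: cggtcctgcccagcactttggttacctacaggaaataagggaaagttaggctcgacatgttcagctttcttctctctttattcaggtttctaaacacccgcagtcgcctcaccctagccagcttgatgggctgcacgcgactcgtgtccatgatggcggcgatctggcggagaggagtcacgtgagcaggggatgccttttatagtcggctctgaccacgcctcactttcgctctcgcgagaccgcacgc
Ndufc2: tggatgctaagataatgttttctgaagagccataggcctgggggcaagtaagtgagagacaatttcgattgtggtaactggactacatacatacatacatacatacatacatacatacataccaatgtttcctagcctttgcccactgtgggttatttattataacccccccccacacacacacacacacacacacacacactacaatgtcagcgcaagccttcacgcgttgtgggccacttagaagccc
Ndufb4: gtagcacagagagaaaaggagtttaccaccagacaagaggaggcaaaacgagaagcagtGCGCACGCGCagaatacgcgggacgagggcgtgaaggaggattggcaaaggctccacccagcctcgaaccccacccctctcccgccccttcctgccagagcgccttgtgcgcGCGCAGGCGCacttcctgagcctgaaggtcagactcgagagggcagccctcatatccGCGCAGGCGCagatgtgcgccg

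Ndufa5 held 1 NRF1 match, beginning 26 bases before the start, and Ndufb4 held 3, the first at 191 and the last at 22 bases before it. Ndufb10, Ndufa7 and Ndufc2 held none in the printed bases. Over the whole window of 300 bases, 7 of the 31 genes (Ndufa5, Ndufa6, Ndufa8, Ndufa11, Ndufb4, Ndufs5 and Ndufs6) held the NRF1 letters, or 22.6%, beside 5.19% of the 27025 genes in the table. The letters AAGATGGC, bound by YY1, stood in another set of 7 (Ndufa3, Ndufa9, Ndufb8, Ndufc1, Ndufs4, Ndufs6 and Ndufs7), again 22.6%, beside 3.19% of all genes, with Ndufs6 in both sets. All 7 YY1 matches began between 22 and 38 bases after the start. The ETS and GABP letters CCGGAAGT were found in Ndufs3 alone (3.23%, beside 4.31% of all genes). The letters of the estrogen-related receptors (ERR), TCAAGGTCA, were found in none of the 31 (0.466% of all genes), and their shorter form AAGGTCA in Ndufb2, Ndufb4 and Ndufs5 (9.68%, beside 5.38%). Both strands were searched for each, and a match shows only that the letters are present. The windows had a median GC content of 59.0%, beside 52.7% over all promoters.

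Depth ranged over 1237675 to 4738307 counts in the 17 libraries, so each of the 35 genes had at least 202 counts in every sham library and at least 45 in every IZ library. All 17 contractile genes of cardiomyocytes were called lower in the IZ, and their summed level ran from 72765 to 88842 CPM (counts per 1e6 of the scaled library) in sham and from 3457 to 34842 CPM in the IZ. Of the marker lists for other cells, 10 of 10 tested macrophage and leukocyte genes and 7 of 8 fibroblast genes were called higher, while 3 of 8 endothelial and 4 of 5 smooth muscle and pericyte genes were called lower. The atrial genes Myl7 and Myl4 were called lower, Tnnt3 of skeletal muscle higher and Cidea of fat lower. The other genes of these lists did not pass the filter on low counts. Tnnt3 was itself low, at 0 to 1.66 CPM in sham and 2.24 to 7.90 CPM in the IZ, and Mylpf had 1 to 17 and 0 to 11 counts. Unlike Cidea, Adipoq reached at most 3 counts in sham and 153 in the IZ, and Plin1 at most 2 and 45, while Ucp1 stayed at or below 1. These genes therefore set no direction for skeletal muscle or fat. Without IZ replicate 1, 4 of 8 endothelial genes were called lower and Tnnt3 was not tested, while the other numbers of calls were the same. IZ replicate 1 stood apart. It had the highest contractile sum (34842 CPM, the other IZ libraries 3457 to 8116 CPM) and the lowest macrophage sum (2733 CPM, the others 4278 to 6550 CPM). From mitochondrial DNA came 19.5% of its counts, beside 4.22 to 6.78% in the other IZ libraries and 22.9 to 32.4% in sham. The fold changes given with an SE in the main comparison, the medians by part and list and the counts of calls are therefore given with and without IZ replicate 1. Group means and SDs are over all 9 IZ libraries unless stated. In tissue of mixed cells, fewer cells of a type and less RNA per cell cannot be told apart.

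All 35 genes were lower in the IZ 5d post-MI. Each was called lower by edgeR's quasi-likelihood F-test at an adjusted p (Benjamini-Hochberg) under 0.05, with adjusted p values from 3.28e-12 to 3.11e-07, and none was called higher. Of all 12301 genes tested, 69.5% were called, 33.1% lower and 36.3% higher, and scaling by total counts alone in place of TMM (trimmed mean of M values) gave 12.5% lower and 74.6% higher. The subunit genes were among the abundant transcripts of the sham LV, where their CPM stood at the 94.8th to 99.4th percentile of tested genes, and of the 635 genes at least as abundant in sham as the lowest of them, 75.4% were called lower. Every IZ library lay below every sham library for all 35 genes, an order that 16.5% of tested genes showed.

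The log2 fold change had a median of -2.53 over the 35 genes, from -3.17 for Ndufa5 to -1.51 for Ndufa7, beside a median of 0.05 over all genes tested. Without IZ replicate 1 each of the 35 values was lower, with a median of -2.80, from -3.56 for Ndufa5 to -1.63 for Ndufa7. In 33 of the 35 it was -2 or below, beside 7.89% of all genes, and between 1.71 and 11.7% of tested genes had a lower value than a given member. The mean level kept in the IZ was 11.1 to 35.2% of the sham mean, with a median of 17.4%, or 14.8% without IZ replicate 1. As a share of all counts, the 35 genes together took 1.77 ± 0.159% in sham (SD, n = 8) and 0.640 ± 0.171% in the IZ (SD, n = 9), or 0.586 ± 0.0601% without IZ replicate 1. Of counts not from mitochondrial DNA, they took 2.44 ± 0.128% in sham and 0.699 ± 0.245% in the IZ, or 0.620 ± 0.0689% without IZ replicate 1. These shares rest on raw totals, whereas the level kept rests on TMM-scaled libraries. Scaled by total counts alone, the median log2 fold change was -1.51.

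**Figure D1:**
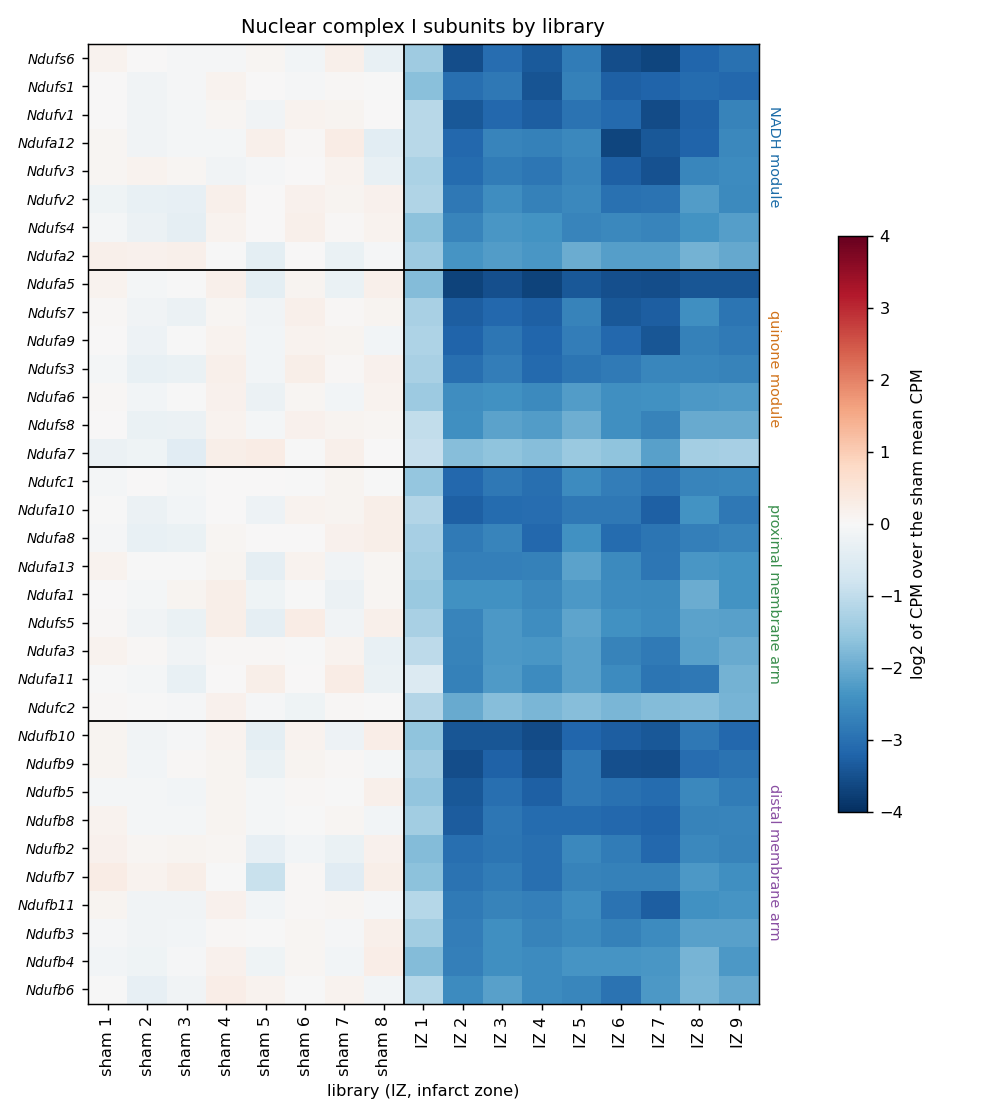
Heat map of 34 of the 35 genes (rows, by part of complex I) in the 17 libraries (columns), where colour gives the log2 of the CPM over the mean CPM of the 8 sham libraries, blue for lower and red for higher. The sham columns are near white apart from Ndufb7 in sham 5, the IZ columns are blue, and IZ 1 is paler than the other 8.

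The genes lie on 15 chromosomes, with at most 5 on the same one (chromosome 17). The spread between animals was small in sham, with a median coefficient of variation of 10.9% over the 35 genes. In the IZ it was 48.1%, or 17.2% without replicate 1. That library had the highest IZ level of all 35 genes, at 1.52 to 4.07 times the mean of the other 8 IZ libraries (median 2.64). Even so, the lowest sham library was 1.18 to 2.95 times the IZ library with the highest level, with the narrowest gap for Ndufa11.

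In the NADH module all 8 genes fell, with a median log2 fold change of -2.58, or -2.93 without IZ replicate 1. Ndufv1 encodes the flavoprotein that takes the electrons from NADH. Its level was 706 to 860 CPM in sham (median 794) and 66.1 to 361 CPM in the IZ (median 89.5), so the groups stood well apart even though IZ replicate 1 was far above the next IZ library at 123 CPM. The means were 784 ± 58.8 and 119 ± 92.2 CPM (SD, n = 8 and 9), with a log2 fold change of -2.72 ± 0.27 (SE, edgeR adjusted p = 7.12e-09, or -3.18 ± 0.12 without IZ replicate 1). Its partner Ndufv2, which binds an iron-sulfur cluster, had 567.8 to 822 CPM in sham (median 743) and 90.7 to 309 CPM in the IZ (median 121). Its means of 713 ± 106 and 135 ± 67.9 CPM differed by a log2 fold change of -2.40 ± 0.21 (SE, edgeR adjusted p = 9.15e-10, or -2.69 ± 0.12 without IZ replicate 1). Ndufs1, the large subunit that carries the next clusters of the chain, fell further, and its sham libraries were among the closest to each other. It ran from 462 to 565 CPM in sham (median 513) and from 47.3 to 161 CPM in the IZ (median 60.4). The means were 513 ± 29.5 and 71.9 ± 34.6 CPM, a log2 fold change of -2.84 ± 0.20 (SE, edgeR adjusted p = 2.40e-11, or -3.11 ± 0.11 without IZ replicate 1).

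The accessory genes of this module bracketed the core genes. Ndufs6, whose product binds zinc and is needed to complete the module, had the largest fall of the 8, from 639 to 911 CPM in sham (median 777) to 62.3 to 296 CPM in the IZ (median 86.4). Its means were 788 ± 85.6 and 107 ± 72.8 CPM, with a log2 fold change of -2.88 ± 0.26 (SE, edgeR adjusted p = 1.10e-09, or -3.28 ± 0.13 without IZ replicate 1). Ndufa2, a small accessory subunit with a thioredoxin-like fold, had the smallest fall, and its IZ libraries were also more alike. It had 892 to 1347 CPM in sham (median 1155) and 224 to 419 CPM in the IZ (median 249.8), and means of 1158 ± 168 and 277 ± 60.2 CPM. Its log2 fold change was -2.06 ± 0.15 (SE, edgeR adjusted p = 4.41e-11, or -2.19 ± 0.11 without IZ replicate 1). Ndufa12, which takes the place of an assembly factor as the module docks (-2.58), Ndufv3 (-2.58) and Ndufs4 (-2.35), a subunit whose loss is a cause of Leigh syndrome, lay between them on the log2 scale.

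In the quinone module all 8 genes fell as well, with a median log2 fold change of -2.54, or -2.82 without IZ replicate 1, and it held both the largest and the smallest fall of the 35. Ndufa5, an accessory subunit of the matrix arm, went from 989 to 1502 CPM in sham (median 1341) to 99.8 to 391 CPM in the IZ (median 115). Without replicate 1 the highest IZ library was at 123 CPM, so the other 8 IZ animals lay within a narrow band. The means were 1299 ± 188 and 144 ± 92.8 CPM, with a log2 fold change of -3.17 ± 0.25 (SE, edgeR adjusted p = 1.59e-10, or -3.56 ± 0.11 without IZ replicate 1). Ndufa7, another accessory subunit of this module, had 376 to 635 CPM in sham (median 509.8) and 114 to 269.6 CPM in the IZ (median 170.2). Its groups also did not overlap, but the gap was smaller, with the lowest sham library at 1.39 times the highest IZ library. The means were 514 ± 91.4 and 181 ± 43.0 CPM, and the log2 fold change was -1.51 ± 0.15 (SE, edgeR adjusted p = 7.84e-09, or -1.63 ± 0.12 without IZ replicate 1).

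Among the core genes of the quinone module the falls were closer to each other. Ndufs7, which holds the last iron-sulfur cluster before ubiquinone, had 654 to 867 CPM in sham (median 784) and 73.0 to 308 CPM in the IZ (median 86.0). Its means of 761 ± 75.6 and 118 ± 74.7 CPM gave a log2 fold change of -2.69 ± 0.25 (SE, edgeR adjusted p = 1.56e-09, or -3.06 ± 0.13 without IZ replicate 1). Ndufs3, a core subunit on which early assembly builds, had the lowest counted level of the 35 in both groups. Its reads may have been divided with a near-identical copy, as given below, so this rank is uncertain. It had 154 to 223 CPM in sham (median 188) and 21.96 to 77.2 CPM in the IZ (median 27.8). Its means were 189.9 ± 26.9 and 32.8 ± 16.96 CPM, and its log2 fold change was -2.54 ± 0.20 (SE, edgeR adjusted p = 1.79e-10, or -2.85 ± 0.11 without IZ replicate 1). Ndufs8, which carries a pair of clusters in the middle of the chain, fell least of the core genes. It had 324 to 444 CPM in sham (median 408) and 61.8 to 199 CPM in the IZ (median 89.9). The means were 393 ± 46.2 and 97.1 ± 40.7 CPM, a log2 fold change of -2.02 ± 0.18 (SE, edgeR adjusted p = 1.36e-09, or -2.26 ± 0.11 without IZ replicate 1). The remaining accessory genes were Ndufa9, of a dehydrogenase-like family and bound to a nucleotide (-2.66), and Ndufa6, which anchors an acyl carrier protein (-2.25).

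**Figure D2:**
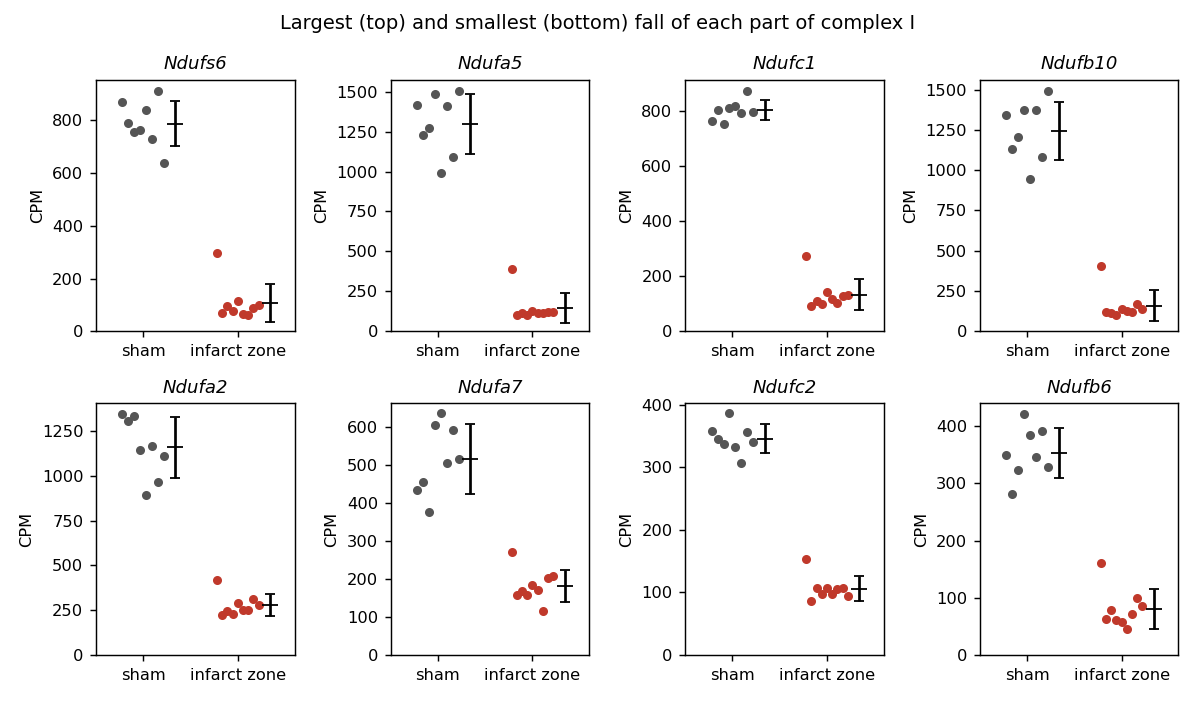
CPM of the gene with the largest fall (top) and the smallest fall (bottom) in the NADH module, the quinone module, the proximal and the distal membrane arm, from left to right. Each point is a library, the bars give the mean ± SD of 8 sham or 9 IZ libraries, each axis starts at 0, and the highest IZ point of every panel is replicate 1.

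The proximal membrane arm, next to the matrix arm, had the smallest median fall, at -2.26 over 9 genes, all called lower, or -2.48 without IZ replicate 1. Ndufc1, a short membrane protein, fell the most. It had 755 to 875 CPM in sham (median 802), with a coefficient of variation of 4.54% that was the lowest of the 35, and 91.1 to 275 CPM in the IZ (median 118). The means were 804 ± 36.5 and 133 ± 55.6 CPM, with a log2 fold change of -2.59 ± 0.18 (SE, edgeR adjusted p = 3.18e-11, or -2.84 ± 0.10 without IZ replicate 1). Ndufc2, its partner in the early assembly of this arm, fell the least. It had 307 to 387 CPM in sham (median 343) and 85.5 to 154 CPM in the IZ (median 105), and its 8 other IZ libraries lay at or below 107 CPM. The means were 346 ± 23.2 and 106 ± 19.4 CPM, and the log2 fold change was -1.70 ± 0.12 (SE, edgeR adjusted p = 1.64e-11, or -1.83 ± 0.09 without IZ replicate 1). Genes of the same arm thus differed in the size of their fall by 0.89 on the log2 scale.

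The others of the proximal arm lay between them. Ndufa10, which resembles a nucleoside kinase (-2.59), and Ndufa8, a subunit on the outer face of the membrane held by disulfide bonds (-2.52), stood near the median of the 35 or below it. Ndufa13, also known as Grim19 for its part in cell death (-2.37), Ndufa1, an X-linked subunit needed for assembly (-2.26), Ndufs5, of the same disulfide-bonded kind as Ndufa8 (-2.18), Ndufa3 (-2.14) and Ndufa11, a membrane subunit at the joint of the arm (-2.06), stood above it.

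In the distal membrane arm all 10 Ndufb genes among the 35 fell, with a median log2 fold change of -2.59, or -2.80 without IZ replicate 1. Ndufb10, a disulfide-bonded subunit on the outer face, had the largest fall. It went from 947 to 1491 CPM in sham (median 1275) to 103 to 407 CPM in the IZ (median 127), and without IZ replicate 1 the highest IZ library was at 169.8 CPM. The means were 1243 ± 182 and 159.7 ± 94.9 CPM, with a log2 fold change of -2.96 ± 0.24 (SE, edgeR adjusted p = 2.50e-10, or -3.31 ± 0.12 without IZ replicate 1). Ndufb6, a small membrane subunit, had 281 to 421 CPM in sham (median 347) and 45.3 to 162 CPM in the IZ (median 72.0). Its means were 353 ± 44.5 and 80.6 ± 34.4 CPM, and its log2 fold change was -2.13 ± 0.19 (SE, edgeR adjusted p = 1.21e-09, or -2.36 ± 0.13 without IZ replicate 1). Between them lay Ndufb9, which like Ndufa6 anchors an acyl carrier protein (-2.89), Ndufb5 (-2.73), Ndufb8, often used as the marker of assembled complex I on blots (-2.70), Ndufb2 (-2.65), Ndufb7 (-2.53), the X-linked Ndufb11 (-2.41), Ndufb3 (-2.31) and Ndufb4 (-2.26).

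**Figure D3:**
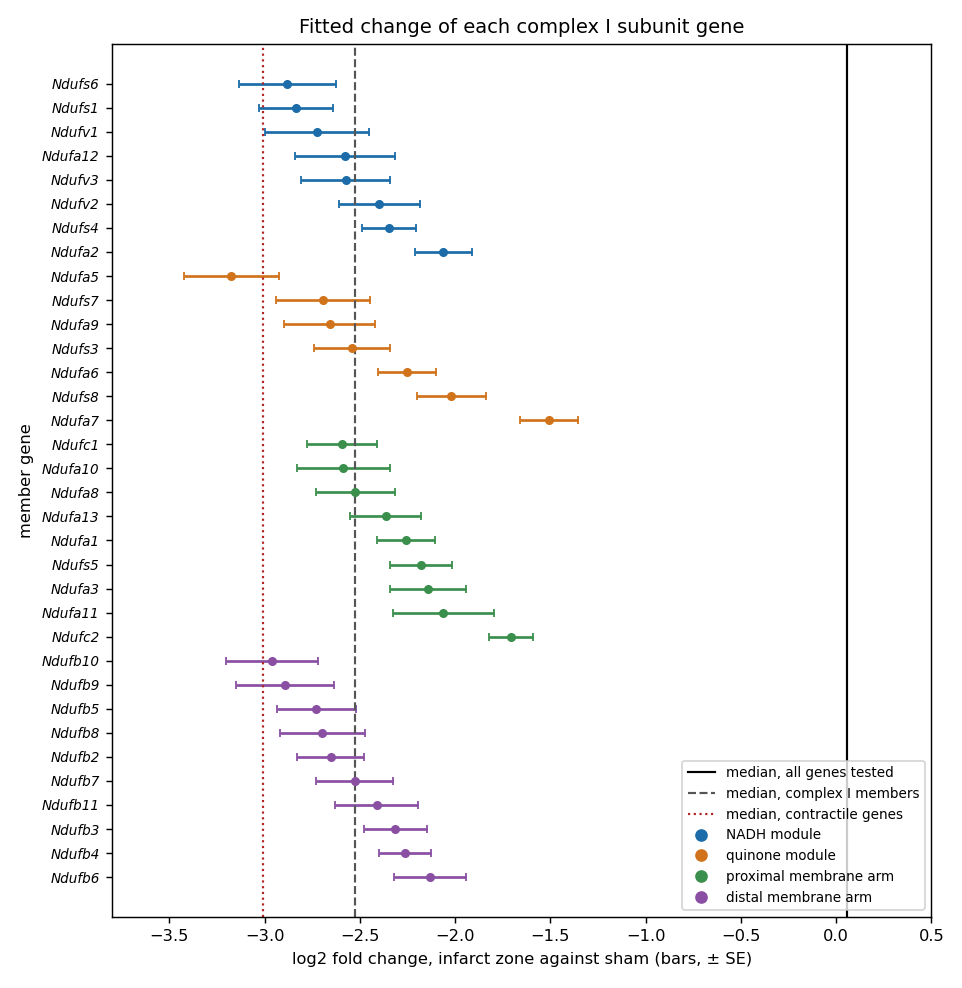
Log2 fold change of 34 of the 35 genes, IZ against sham, with the SE, by part of complex I and in the order of their values, where vertical lines mark the medians of all genes tested (0.05), of the 35 genes (-2.53) and of the contractile genes (-3.01). All points lie left of -1.5, and the parts overlap in their ranges.

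Core and accessory genes overlapped in the size of their fall. The 7 nuclear core genes had a median log2 fold change of -2.54 (from -2.84 to -2.02) and the 28 accessory genes a median of -2.47 (from -3.17 to -1.51), and without IZ replicate 1 the medians were -2.85 and -2.73. By promoter letters, the 7 genes with the NRF1 letters had a median of -2.26, the 24 without them -2.53, and the 7 genes with the YY1 letters had a median of -2.66, the 24 without them -2.40. These medians by promoter letters are given only with IZ replicate 1 included.

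The libraries were next scaled on the 35 genes themselves, by the median of their ratios, which asks of each gene whether it changed more or less than the set as a whole. On this scale all genes tested had a median log2 fold change of 2.66, and 92.3% of them were called higher and 2.8% lower, while the subunit genes are centred near 0 by construction. Of the 35, 7 were called higher and 6 lower, 22 were not called, and 31 lay within 0.5 of 0. Ndufa7 (log2 fold change 1.04 ± 0.16, SE, edgeR adjusted p = 6.31e-07) and Ndufc2 (0.86 ± 0.16, SE, edgeR adjusted p = 8.77e-06) had fallen less than the set. Ndufa2 (0.48), Ndufs8 (0.46), Ndufb6 (0.36), Ndufs5 (0.33) and Ndufa3 (0.32) were also called higher. Ndufa5 (-0.75 ± 0.15, SE, edgeR adjusted p = 2.52e-05) and Ndufb10 (-0.53 ± 0.15, SE, edgeR adjusted p = 0.00122) had fallen more than the set, as had Ndufb9 (-0.50), Ndufs6 (-0.49), Ndufs1 (-0.36) and Ndufv1 (-0.35).

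Leaving out IZ replicate 1 widened this pattern. Without it, 12 genes were called higher and 11 lower, beside 92.7% and 3.57% of all genes tested. Ndufs4, Ndufb3, Ndufb4, Ndufa1 and Ndufa6 were added on the higher side and Ndufb5, Ndufb8, Ndufs7, Ndufa9 and Ndufa10 on the lower side. Without sham replicate 3, 4 genes were called higher, beside 92.1% of all genes tested. Ndufa5, Ndufb10, Ndufb9 and Ndufs6 on the lower side and Ndufa7, Ndufc2, Ndufa2 and Ndufs8 on the higher side were called in every alternative run. The SD of the log2 ratio to the sham mean over the 35 genes of a library was 0.0945 to 0.22 in sham and 0.26 to 0.48 in the IZ, so the proportions of the subunit transcripts departed further from the sham mean in each IZ library than in any sham library. The sham libraries themselves make up that mean. Counts were also lower in the IZ, and the part of counting error in this spread was not tested.

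**Figure D4:**
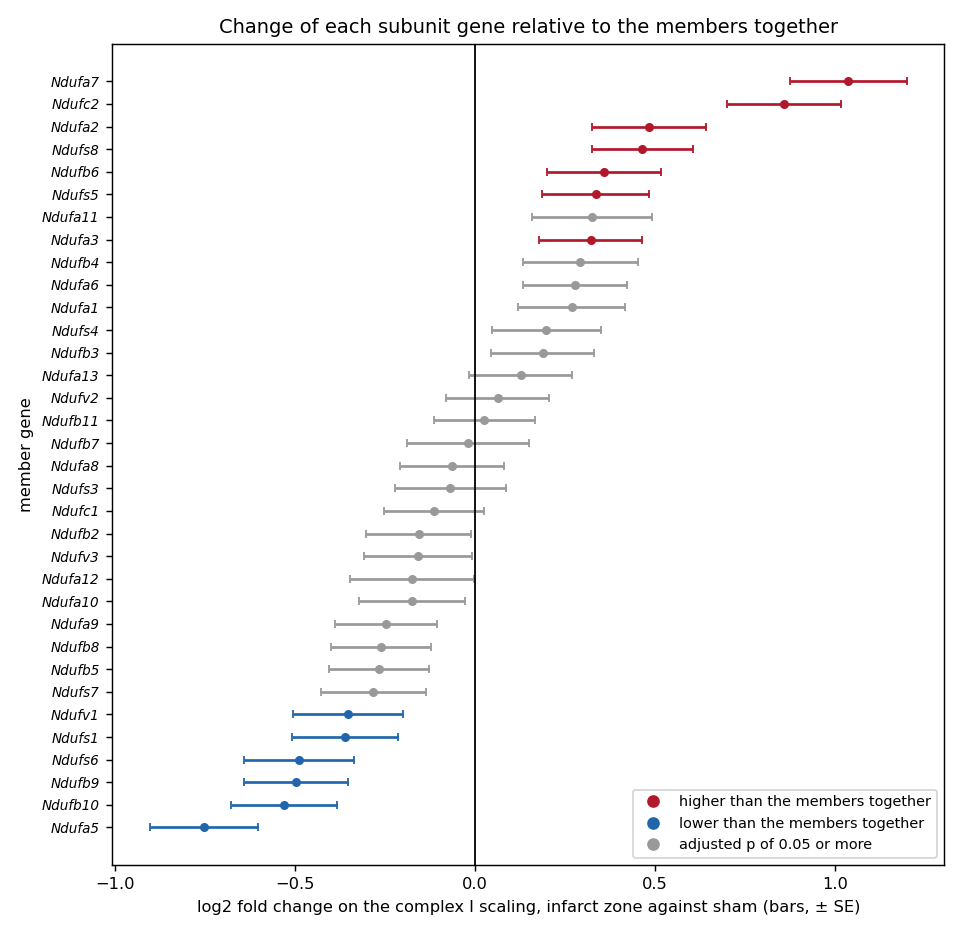
Log2 fold change of 34 of the 35 genes after scaling the libraries on all 35, IZ against sham, with the SE, in the order of their values. Red points were called higher (7), blue points lower (6) and grey points not called (21 of those plotted), and Ndufa7 and Ndufc2 lie to the right of all others.

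Since complex I is abundant in cardiomyocytes, the genes were set beside the contractile list, which had fallen further, with a median log2 fold change of -3.01 over 17 genes, from -4.33 for Tcap to -2.12 for Actc1 (median -3.67 without IZ replicate 1). The median of the subunit genes was 0.48 higher than that of the contractile genes on the log2 scale, or 0.87 without IZ replicate 1. When the libraries were scaled on the contractile genes, 29 of the 35 were called higher, none was called lower and 6 were not called (Ndufa5, Ndufb10, Ndufb9, Ndufs6, Ndufs1 and Ndufv1), beside 95.9% and 0.854% of all genes tested. All 35 had a positive log2 fold change on this scale, with a median of 0.82, from 0.10 for Ndufa5 to 1.96 for Ndufa7, where all genes had a median of 3.62. Without IZ replicate 1, 34 were called higher, with a median of 0.91, beside 97.0% of all genes tested and their median of 3.77.

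A related comparison was made library by library, with the mean over the genes of log2 CPM minus the sham mean. The 35 genes had a mean of -2.54 ± 0.49 in the IZ (SD, n = 9), with IZ replicate 1 at -1.33 and the others from -2.90 to -2.46. The contractile genes were at -3.54 ± 0.9996, with IZ replicate 1 at -1.14 and the others from -4.46 to -3.25. In 8 of 9 IZ libraries the subunit genes were thus less reduced than the contractile genes, by 0.74 to 1.63, whereas in IZ replicate 1 they were more reduced, with a difference of -0.19. In sham this difference ran from -0.05 to 0.04.

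**Figure D5:**
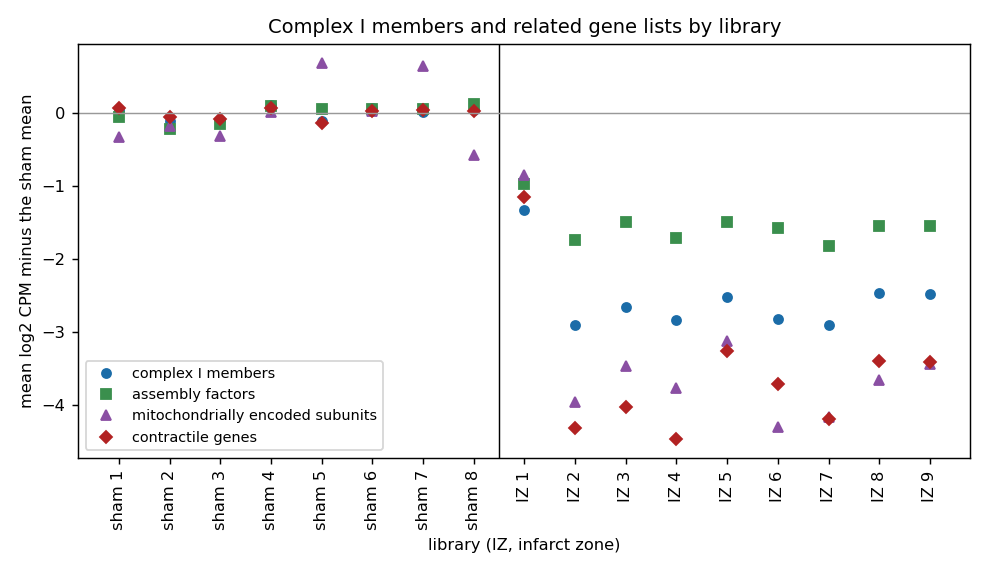
Mean log2 CPM minus the sham mean, by library, for the 35 complex I genes (circles), their 18 tested assembly factors (squares), the 7 mitochondrially encoded subunits (triangles) and 17 contractile genes (diamonds). In IZ 2 to 9 the assembly factors are the highest, the complex I genes next and the other lists the lowest; in IZ 1 all lie between -1.33 and -0.85.

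The complex also needs subunits that mitochondria encode, and these fell along with the nuclear genes. All 7 were called lower, with a median log2 fold change of -3.02, from -3.19 for mt-Nd3 to -2.77 for mt-Nd6, and without IZ replicate 1 all 7 were still called, with a median of -3.79. Their sum was 70583 to 165922 CPM in sham and 5834 to 12323 CPM in 8 IZ libraries, but 59919 CPM in IZ replicate 1. In 6 of the 7 every IZ library was below every sham library, the exception being mt-Nd4l. Its overlap came from IZ replicate 1 alone, at 166 CPM. The other IZ libraries were at or below 26.9 CPM and the lowest sham library at 122 CPM.

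Assembly factors, which build the complex without staying in it, fell less. All 18 tested were called lower, 14 of them with every IZ library below every sham library, and their median log2 fold change was -1.47. The largest fall was that of Ecsit (-2.50), which takes part in the early assembly of the membrane arm, and the smallest that of Dmac1 (-0.58). Without IZ replicate 1 all 18 were called lower, with a median of -1.58. On the contractile scale their median was 2.01, beside 0.82 for the subunit genes, and on the complex I scale it was 1.08 (2.16, 0.91 and 1.15 without IZ replicate 1).

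The genes that the naming rule left out did not move alike. Ndufa4, now counted as a subunit of complex IV, fell from 2251 ± 216 to 304 ± 130 CPM (log2 fold change -2.89 ± 0.20, SE, edgeR adjusted p = 2.78e-11, or -3.14 ± 0.11 without IZ replicate 1), and Ndufab1, the acyl carrier protein bound in complex I, fell from 521 ± 68.8 to 77.9 ± 45.8 CPM (-2.74 ± 0.23, SE, edgeR adjusted p = 4.89e-10, or -3.08 ± 0.13 without IZ replicate 1). Ndufa4l2, known as a gene induced by hypoxia, rose from 21.3 ± 3.33 to 29.1 ± 6.90 CPM (0.45 ± 0.15, SE, edgeR adjusted p = 0.0109, or 0.39 ± 0.16 without IZ replicate 1), with groups that overlapped.

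Of 10 genes for regulators of respiratory gene expression, 7 were called lower and 1 higher. The coactivators Ppargc1a (-3.55) and Ppargc1b (-2.83) and the ERR genes Esrrb (-3.39), Esrrg (-2.39) and Esrra (-2.20) had log2 fold changes of the size seen in the subunit genes or larger. Tfam, the packaging factor of mitochondrial DNA (-0.82), and Gabpa (-0.75) fell less, and Gabpb1, its partner in the GABP complex, rose (0.43). Without IZ replicate 1, Ppargc1a was at -4.46, Ppargc1b at -3.76, Esrrg at -2.72, Esrra at -2.41, Tfam at -0.90 and Gabpa at -0.78, all called lower. Their IZ means moved most for Ppargc1a, from 5.51 to 3.11 CPM, and for Ppargc1b, from 4.78 to 2.47 CPM. Esrrb no longer passed the filter on low counts, its IZ mean going from 1.16 to 0.73 CPM, and Gabpb1 was no longer called (0.41, edgeR adjusted p = 0.0752). Yy1 and Nrf1 were not called with or without that library. Yy1 had 50.3 ± 3.72 CPM in sham and 50.6 ± 3.17 CPM in the IZ (log2 fold change 0.01 ± 0.09, SE, or -0.02 ± 0.09 without IZ replicate 1). Nrf1 had 13.7 ± 4.11 and 14.5 ± 2.36 CPM (0.12 ± 0.17, SE, or 0.08 ± 0.18 without IZ replicate 1).

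Nuclear subunits of the other respiratory complexes had medians close to that of complex I. All 4 genes of complex II (median log2 fold change -2.47), all 8 of complex III (-2.58) and all 17 of complex V (-2.49) were called lower. In complex IV, 12 of 15 were called lower (median -2.48), from Cox7a1 (-3.94), an isoform of heart and skeletal muscle, to Cox6a1 (0.09), which was not called. Without IZ replicate 1 the medians were -2.72 for complex II, -2.95 for complex III, -2.72 for complex V and -2.77 for complex IV, where 13 of 15 were called lower. Cox7a1 was then at -4.85, its IZ mean going from 133 to 73.7 CPM.

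Some of the genes have near-identical copies, whose reads the authors' counting could have divided. Of the 35, 9 share at least 100 bases at 95% identity or more with another annotated transcript within the last 500 bases, and 6 of these have a counted copy, all processed pseudogenes. The counts of the copy were 80.5% of those of Ndufs3 in sham and 92.9% in the IZ, and 91.7% and 87.3% of those of Ndufs5. For Ndufs6, Ndufa12, Ndufb11 and Ndufb3 they were 5.02 to 24.1% in either group. The levels of Ndufs3 and Ndufs5 are therefore uncertain. With the counts of the copies added, an alternative chosen after seeing the data, the log2 fold change of Ndufs3 was -2.46 and the log2 fold change of Ndufs5 was -2.21, and all 35 genes were still called lower. The rule also left out 5 genes that are named after subunits but not annotated as protein-coding. All were called lower, from Ndufs6b (-3.06) to Ndufb1-ps (-2.10), or -3.32 and -2.24 without IZ replicate 1. Ndufb1-ps, annotated as a long noncoding RNA, was assigned to the distal membrane arm and had a mean of 805 CPM in sham. It is not among the 10 genes of that arm described above. Ndufb2, Ndufb8 and Ndufb9 overlap readthrough genes that have no feature of their own in the table.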

How the data were processed

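The authors deposited raw counts per gene from 3' end libraries with molecular identifiers, after trimming with Cutadapt, mapping to mm10 (Bowtie2 per the submitters' processing notes) and counting with HTSeq. Which annotation release was used, and how multi-mapped reads were treated, is not given in the sources used here. All 17 columns were used. Of 31647 features, 35 were merged groups of genes, none with a complex I gene, and 31521 matched GENCODE M21 on GRCm38.

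The test was that of edgeR 4.0.16, run in R 4.3.3 (filterByExpr with a minimum of 10 counts, TMM factors 0.616 to 1.53, two-sided quasi-likelihood F-test over 12301 genes, no covariates, Benjamini-Hochberg adjustment, threshold 0.05). CPM use TMM-scaled library sizes, and values by library on the log2 scale use a prior count of 1. CPM were not divided by length, since the reads come from the 3' ends of the transcripts. Intervals and p values cover the spread between these samples and counting error. No library was a copy of another (chi-square per degree of freedom at least 2.41).

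Other scalings used the median of ratios over the 35 genes or over 17 contractile genes. Copies were sought with BLAST 2.17.0. Members are named, with full values for nuclear core genes and for the gene with the highest and the lowest log2 fold change of each part. Of other lists the extremes and all regulators are named, while mt-Nd4l, Ndufab1 and the marker genes of other tissues were named after their values were seen. The members and lists were chosen with earlier results of these data known. The fits were tested on simulated data with 200 changed genes, and scaling on a list was tried there with unchanged genes only. Far more genes were called here, and both lists used for scaling fell, so that test does not cover these conditions. Alternatives were other scalings, the DESeq2 1.42.0 Wald test, other filters, thinning to 1237675 counts, removal of mitochondrially encoded features, a replicate block, added copies and the omission of each library. The result of 1 gene is not reported here, though it is in all counts and medians. Coa1 has no feature of its own and was not analysed here.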

Additional observations from a re-analysis of the deposited data

Results flagged for a closer look

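In 16 of the 34 groups of values examined, the library farthest from the others exceeded Dixon's 95% critical value, and in all 16 it was IZ replicate 1. Chance flags about 1 in 20 groups, and these 16 share a library. Of the 14 genes given with full values, 13 did so in the IZ, at 391 CPM for Ndufa5, 407 CPM for Ndufb10, 296 CPM for Ndufs6, 161 CPM for Ndufs1, 361 CPM for Ndufv1, 308 CPM for Ndufs7, 275 CPM for Ndufc1, 77.2 CPM for Ndufs3, 309 CPM for Ndufv2, 162 CPM for Ndufb6, 419 CPM for Ndufa2, 199 CPM for Ndufs8 and 154 CPM for Ndufc2. Ndufa7 did not.

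The share of counts taken by the 35 genes was also past it, at 1.07% in this library, with the next IZ library at 0.661%. Their mean log2 CPM minus the sham mean was at -1.33, with the next at -2.46, and its difference from the contractile genes was at -0.19, with the next at 0.74, both past the same value. The macrophage sum and the share of mitochondrial counts moved with these values, as given in the report, and their part in them was not tested.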

How the results depend on the processing

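All 35 genes were called lower in each of the 27 alternatives, and none was called higher. Their 945 log2 fold changes under these alternatives kept their direction and call, between -3.56 and -0.45. The median over the genes was -2.80 to -2.45 when 1 library was left out (-2.80 without IZ replicate 1) and -2.60 to -2.42 under the others, except that scaling by total counts alone gave -1.51, where the median of all genes moved to 1.13 and 12.5% of all genes were called lower and 74.6% higher. The difference from the contractile median ran from 0.42 to 0.87 when 1 library was left out, the highest without IZ replicate 1. On the complex I scale, the calls higher ran from 4 (without sham replicate 3) to 12 (without IZ replicate 1) and the calls lower from 5 to 11 (the latter without IZ replicate 1) when 1 library was left out, and a minimum mean of 50 counts gave 8 lower. Of all genes tested, 91.8 to 92.7% were called higher and 2.62 to 3.57% lower when 1 library was left out, and 3.76% lower with that minimum. On the contractile scale the calls higher ran from 24 to 34 when 1 library was left out, beside 95.5 to 97.0% of all genes tested. Of 735 values on the complex I scale, 683 kept their call, 26 lost it, 16 gained it and 10 changed sign, none of them called. The log2 fold change on the complex I scaling of Ndufs3 went from -0.07 to 0.0136 with copies added. The log2 fold change on the complex I scaling of Ndufb7 went from -0.02 to 0.00975 with the replicate block and ran from -0.107 to 0.0278 when 1 library was left out. The log2 fold change on the complex I scaling of Ndufb11 went from 0.03 to between -0.0011 and 0.0798 when 1 library was left out. The causes were not tested.

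The replicate numbers shared by sham and IZ did not pair the samples. The correlations of deviations between libraries with the same number ran from -0.22 to 0.13, and 1 of 8 correlated best with its own number. With the number as a block, which leaves out IZ replicate 9, the median was -2.60, 35 genes were called lower, 4 were called higher and 4 lower on the complex I scale, and 18 higher on the contractile scale. Of all genes tested with the block, 31.6% were called lower. On the complex I scale 91.5% were called higher and 2.73% lower, and on the contractile scale 94.6% higher. The depth of the smallest library was enough for all 35 calls when every library was thinned to it. Raw counts of the least covered gene, Ndufs3, went down to 45 in an IZ library. The SE of its log2 fold change, 0.20, was the median of the 35 genes.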
